A study of Mus musculus with 16 samples.

Results

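The genes described here are 32 mouse genes of fatty acid synthesis, of the supply of NADPH and acetyl-CoA for it, and of triglyceride synthesis and storage. They were taken from a named list by gene symbol, and all 32 were found among the 51912 gene identifiers of the count table and among the 14920 genes with enough counts to be tested. Poly-A enriched RNA of 16 livers of male mice was sequenced. The 4 groups of 4 livers were low isoleucine refed, control refed, low isoleucine fasted and control fasted. All mice were kept at about 22 °C, entered the study at 10 weeks of age, received for 3 weeks either a low isoleucine diet, short of that essential branched amino acid, or a control amino acid diet, and their age at the end was 13 weeks. Tissue was collected after 16 h of overnight fasting or after refeeding, whose length the labels do not give. They name no strain and no transgene. Each group carries its own number in the labels (9, 7, 2 and 1 for low isoleucine refed, control refed, low isoleucine fasted and control fasted), and what it stands for cannot be told apart from diet and feeding state. The samples of a group are set apart by the marks RL, R, L and N (libraries 1 to 4 here). The labels do not say in words that each is a separate mouse, so p-values measure the spread between these samples.

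In the liver, carbon from glucose becomes fat through a chain of enzymes that is switched with meals. Glycolysis delivers pyruvate, mitochondria export citrate, ATP citrate lyase splits it to acetyl-CoA, and acetyl-CoA carboxylase and fatty acid synthase build palmitate with electrons from NADPH. Fatty acids are then activated to acyl-CoA and joined to glycerol 3-phosphate to give phosphatidic acid, diacylglycerol and triglyceride, which is kept in lipid droplets. Insulin acts on this chain through SREBP-1c, a product of Srebf1, and glucose through ChREBP, the product of Mlxipl. Among the genes listed, lipins, lipases and droplet proteins also serve the fasted liver, which handles fatty acids arriving from adipose tissue.

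The promoters of 4 genes that rose strongly on refeeding are shown here because refeeding moved these genes together. Each is a window of 300 bases, 250 before and 50 after a transcription start, in RefSeq GRCm38.p6, written 5′ to 3′ on the gene's strand. Capitals mark the letters CCAAT, which read ATTGG when they lie on the other strand, the GC box GGGCGG, which then reads CCGCCC, and, in Pklr, a match to the carbohydrate response element pattern known to bind ChREBP. Fasn, fatty acid synthase, lies at chr11:120824498-120824797 on the minus strand, Thrsp at chr7:97417501-97417800 on the minus strand, its paralog Mid1ip1 at chrX:10717115-10717414 on the plus strand, and the second of the 2 listed Pklr windows at chr3:89136373-89136672 on the plus strand.
Fasn: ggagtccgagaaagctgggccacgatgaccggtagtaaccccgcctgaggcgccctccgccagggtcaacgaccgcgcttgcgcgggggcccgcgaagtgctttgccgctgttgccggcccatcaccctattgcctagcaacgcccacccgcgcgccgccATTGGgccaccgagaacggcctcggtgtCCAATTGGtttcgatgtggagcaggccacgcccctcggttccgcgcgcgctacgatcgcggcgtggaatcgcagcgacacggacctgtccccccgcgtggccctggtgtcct
Thrsp: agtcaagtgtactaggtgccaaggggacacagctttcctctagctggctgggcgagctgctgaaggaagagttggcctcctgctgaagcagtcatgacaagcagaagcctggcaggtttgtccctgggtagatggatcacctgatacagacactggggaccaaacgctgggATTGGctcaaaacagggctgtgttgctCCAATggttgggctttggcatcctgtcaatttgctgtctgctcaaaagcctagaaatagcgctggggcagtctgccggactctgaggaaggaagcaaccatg
Mid1ip1: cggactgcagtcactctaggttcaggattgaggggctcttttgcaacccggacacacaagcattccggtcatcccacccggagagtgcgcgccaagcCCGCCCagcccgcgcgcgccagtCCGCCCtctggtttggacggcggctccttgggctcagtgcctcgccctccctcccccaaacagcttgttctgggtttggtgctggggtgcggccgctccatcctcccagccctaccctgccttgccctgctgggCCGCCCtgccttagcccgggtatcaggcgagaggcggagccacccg
Pklr: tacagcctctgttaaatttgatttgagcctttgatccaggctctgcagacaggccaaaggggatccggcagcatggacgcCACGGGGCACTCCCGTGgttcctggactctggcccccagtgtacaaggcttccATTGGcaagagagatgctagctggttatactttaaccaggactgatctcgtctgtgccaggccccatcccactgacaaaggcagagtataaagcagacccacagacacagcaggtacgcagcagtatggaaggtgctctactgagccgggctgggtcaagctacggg

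In the Fasn window the CCAAT letters occur 3 times, with 2 of the matches overlapping on opposite strands, and in the Thrsp window 2 times. Mid1ip1 held GC boxes and no CCAAT match. The window of Aacs, which also rose strongly, and the first listed Pklr window held 0 matches to any motif searched and are not shown. Of the 32 genes 29 had an entry, with 39 windows in all, and both strands were searched. CCAAT was in 48.7% of the 39 windows and in 37.4% of the 32851 windows of the whole table. Among 13 windows of genes that rose on refeeding on both diets, 8 held it (61.5%), and among 9 windows of genes that fell on both, 2 held it (22.2%). Some genes have more than 1 window, and Srebf1 is counted more than once among the 8. GGGCGG was in 51.3% of the windows, against 35.7% of the table, and in 46.2% of the 13 rising and 33.3% of the 9 falling windows. Of the 13 rising windows 0 held the E-box or the sterol response core described next, and of the 9 falling windows 1 held the E-box and 0 the sterol response core. The E-box CACGTG, a match for USF and related factors, was in 7.69%, against 7.15% of the table, and the sterol response core TCACNCCAC in 2.56% (the Mlxipl window), against 1.24%. The carbohydrate response element pattern, chosen after the other results were seen, was in the Pklr window alone of the 39 (2.56%), against 0.557% of the table, and reads CACGGGGCACTCCCGTG with its first base at -170. A stretch that matched more than 1 motif was counted under each. These counts describe letters in short windows and carry no test.

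Libraries held 24368656 to 34002955 counts, and the 32 genes together took 0.245% to 0.470% of them, with a mean of 0.372% in low isoleucine refed, 0.372% in control refed, 0.352% in low isoleucine fasted and 0.342% in control fasted livers. Levels are CPM, counts scaled to a common library size by the TMM method. Differences are log2 fold changes from edgeR's quasi-likelihood test fitted to all 16 libraries, with the standard error (SE) and a Benjamini-Hochberg adjusted p over all 14920 genes, and a gene rose or fell only at an adjusted p under 0.05. Hepatocyte markers (9 of 10 in the table) summed to 92125 to 118444 CPM in low isoleucine refed, 88486 to 93588 in control refed, 111129 to 131557 in low isoleucine fasted and 76133 to 113084 in control fasted livers, all of which are labelled liver. In bulk liver RNA, fewer cells of a type and less RNA per cell cannot be told apart.

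Control refed library 4 stood apart, and the values of the genes that it moved most are given with and without it. It was the lowest control refed library for 25 of the 32 genes (78.1%, against 31.1% of all genes tested), and its median ratio to the mean of the other 3 was 0.562 over the 32 genes and 0.985 over all genes. For the 9 genes that rose on refeeding on both diets it was the lowest in 9 of 9, with a median ratio of 0.169, and 5 of these lay inside the control fasted range. The 6 genes that fell on both diets were all below the control fasted range in it. The fasting-induced Angptl4 was at 16.0 CPM in it, inside the range of 14.2 to 30.8 CPM of its group. In that library the summed markers were 371 CPM for 8 Kupffer cell and macrophage genes, 323 CPM for 8 endothelial genes and 537 CPM for 8 stellate genes, the highest among the 16 libraries. In the other 3 control refed libraries those lists were at 178 to 253, 129 to 196 and 199 to 243 CPM. Lymphocyte markers (10.7 CPM) and neutrophil markers (6.52 CPM) were also the highest of the 16 in it, beside 3.11 to 4.67 and 2.16 to 3.39 CPM in the other 3. Adipocyte markers summed to 21.3 CPM in it, of which Fabp4 gave 19.4 CPM, beside sums of 7.24 to 10.6 CPM in the other 3. Its hepatocyte sum, 88486 CPM, was mostly Alb (59613 CPM). Of the hepatocyte markers, Cyp2e1 (4564 CPM, beside 9322 to 10054), Hnf4a (435 CPM, beside 586 to 644), Ttr, Apoa1 and Serpina1c were the lowest of the group in it. Cps1 (7198 CPM, beside 2057 to 3863) and Ass1 (2899 CPM, beside 1139 to 1332) were the highest, and Alb and Fgb lay inside the range of the other 3. The part of these cell markers in the results was not tested.

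On either diet, refeeding raised Srebf1, a master factor of lipogenesis, and Pklr, Acly and Fasn, enzymes on the way from glucose to palmitate, and lowered the lipins Lpin1 and Lpin2, the lipase gene Pnpla2 and the droplet gene Cidec. On the low isoleucine diet 11 of the 32 genes rose, 8 fell and 13 did not pass, where 21.4% of all 14920 genes passed, 9.6% higher and 11.8% lower. On the control diet 10 rose, 6 fell and 16 did not pass, where 17.1% of all genes passed, 8.91% higher and 8.2% lower. Every refed library lay above every fasted library for 13 of the 32 genes, and below for 8, on the low isoleucine diet, against 11.6% and 13.1% of all genes. The same held on the control diet for 4 genes above and 6 below, against 9.5% and 9.62% of all genes. Genes that rose on both diets were Srebf1, Fasn, Acly, Aacs, Thrsp, Mid1ip1, Pklr, Pgd and Acsl3 (9 of the 11 and of the 10), and those that fell on both were Acacb, Pnpla2, Agpat3, Lpin1, Lpin2 and Cidec (6 of the 8 and of the 6). The median log2 fold change of the 32 genes was 0.16 on the low isoleucine diet and 0.04 on the control diet, beside 0.02 and 0.01 over all genes. Without control refed library 4 the counts were 13 rising and 8 falling on the low isoleucine diet (23.9% of all genes passed) and 12 rising and 4 falling on the control diet (18.2%). That library was the lowest of its group for all 9 genes that rose on both diets, and for Pnpla3 and Acaca. Leaving it out therefore raises their control refed means by construction. Without that library the control-diet log2 fold changes of the genes that rose on both diets stood further from 0, with Mid1ip1 at 3.43 (adjusted p = 3.64e-06), Aacs at 3.19 (adjusted p = 1.07e-05), Thrsp at 3.12 (adjusted p = 0.00041) and Fasn at 2.92 (adjusted p = 6.72e-06). There Pklr at 2.63 (adjusted p = 1.42e-06), Srebf1 at 2.04 (adjusted p = 0.000617), Acly at 1.39 (adjusted p = 2.48e-05), Acsl3 at 1.07 (adjusted p = 0.00272) and Pgd at 0.66 (adjusted p = 0.00141) also rose, as did Pnpla3 at 3.14 (adjusted p = 0.000306) and Acaca at 0.69 (adjusted p = 0.0263). Among the genes that fell, Lpin2 at -2.18 (adjusted p = 0.00019), Lpin1 at -1.63 (adjusted p = 0.0377), Cidec at -1.41 (adjusted p = 0.0183) and Pnpla2 at -1.03 (adjusted p = 0.0208) still passed, and Acacb at -0.82 (adjusted p = 0.0741) and Agpat3 at -0.46 (adjusted p = 0.0744) did not.

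Of the transcription factors, Srebf1 rose and Mlxipl did not pass. Srebf1 lies on chromosome 11, 60199089 to 60222581, minus strand (ENSMUSG00000020538) in GENCODE M21. Srebf1, which encodes SREBP-1a and SREBP-1c counted together here, was at 99.7, 57.0, 42.7 and 59.4 CPM in low isoleucine refed livers, against 12.7, 17.9, 11.1 and 14.2 CPM in low isoleucine fasted livers. Control-diet livers had 112, 82.0, 66.2 and 31.7 CPM after refeeding, against 16.7, 34.4, 14.3 and 18.4 CPM after fasting. Every low isoleucine refed library lay above every fasted one, while on the control diet refed library 4 fell among the fasted values. The log2 fold change was 2.21, SE 0.373, adjusted p = 0.000766 on the low isoleucine diet and 1.80, SE 0.366, adjusted p = 0.00372 on the control diet. Mlxipl lies on chromosome 5, 135089890 to 135138382, plus strand (ENSMUSG00000005373). Mlxipl, the glucose-responsive factor ChREBP, was at 188, 158, 117 and 194 CPM in low isoleucine refed livers, against 127, 129, 151 and 161 CPM in low isoleucine fasted livers. On the control diet it was at 211, 203, 164 and 76.6 CPM in refed livers, against 131, 108, 97.8 and 132 CPM in fasted livers. Its groups overlapped on both diets (log2 fold change 0.21, adjusted p = 0.595 on the low isoleucine diet, and 0.48, adjusted p = 0.200 on the control diet). Without control refed library 4, Mlxipl passed on the control diet at 0.71 (adjusted p = 0.00675). That library was the lowest of its group for Mlxipl, so leaving it out raises the control refed mean by construction.

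Of the 5 genes that supply acetyl-CoA and citrate, Aacs, Pklr and Acly rose on both diets and the other 2 passed on neither. Aacs lies on chromosome 5, 125475814 to 125517410, plus strand (ENSMUSG00000029482). Aacs, acetoacetyl-CoA synthetase, which returns acetoacetate to cytosolic lipid synthesis, was at 49.5, 51.2, 30.9 and 52.6 CPM in low isoleucine refed livers, against 3.60, 2.94, 3.64 and 5.44 CPM in low isoleucine fasted livers, 11.8-fold higher. Control-diet livers had 72.0, 92.9, 56.2 and 9.92 CPM after refeeding, against 9.49, 7.44, 4.04 and 11.2 CPM after fasting. The log2 fold change was 3.56, SE 0.534, adjusted p = 0.000371 on the low isoleucine diet and 2.84, SE 0.510, adjusted p = 0.00177 on the control diet, and the groups overlapped on the control diet through refed library 4. Pklr lies on chromosome 3, 89136142 to 89146784, plus strand (ENSMUSG00000041237). Pklr, pyruvate kinase of liver and red cells, whose promoter window above holds the carbohydrate response element pattern, was at 269, 159.7, 161 and 150.2 CPM in low isoleucine refed livers, against 57.4, 38.4, 42.4 and 59.2 CPM in low isoleucine fasted livers. Refed control livers had 332, 295, 268 and 50.4 CPM, against 51.2, 53.4, 47.1 and 40.4 CPM in fasted control livers. Of the refed control libraries 3 lay at 268 CPM or more and library 4 lay inside the fasted range. Pklr rose by 1.91, SE 0.404, adjusted p = 0.00363 on the low isoleucine diet and by 2.30, SE 0.409, adjusted p = 0.00148 on the control diet, and 22.0% of its annotated exon bases overlap those of Hcn3 on the opposite strand.

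Acly lies on chromosome 11, 100476353 to 100528000, minus strand (ENSMUSG00000020917). Acly, ATP citrate lyase, was at 167, 169, 152 and 123 CPM in low isoleucine refed livers, against 66.1, 57.6, 60.1 and 66.6 CPM in low isoleucine fasted livers. On the control diet Acly was at 163, 224, 244 and 147 CPM in refed livers, against 73.7, 97.7, 75.4 and 73.9 CPM in fasted livers. Refed and fasted livers did not overlap on either diet, control refed library 4 included, and the log2 fold change was 1.29, SE 0.159, adjusted p = 3.44e-05 on the low isoleucine diet and 1.28, SE 0.159, adjusted p = 6.58e-05 on the control diet. Acss2 lies on chromosome 2, 155517948 to 155585724, plus strand (ENSMUSG00000027605). Acss2, cytosolic acetyl-CoA synthetase, which activates acetate, was at 83.1, 86.9, 83.6 and 90.1 CPM in low isoleucine refed livers, against 70.5, 47.8, 45.0 and 59.4 CPM in low isoleucine fasted livers, without overlap but short of the threshold (0.63, adjusted p = 0.0681). Control-diet livers had 80.0, 109.8, 70.7 and 39.5 CPM of it after refeeding, against 72.8, 107, 76.2 and 65.4 CPM after fasting (-0.10, adjusted p = 0.837). Slc25a1, the mitochondrial citrate carrier, did not pass, at 85.0 ± 12.7 CPM in low isoleucine refed, 92.9 ± 22.4 in control refed, 79.0 ± 4.35 in low isoleucine fasted and 83.6 ± 6.58 in control fasted livers (SD, n = 4 each). Unlike Pklr and Acly, which rose on both diets, it lay within -0.21 to 0.42 log2 units (95% interval) on the low isoleucine diet and -0.17 to 0.47 on the control diet.

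**Figure D1:**
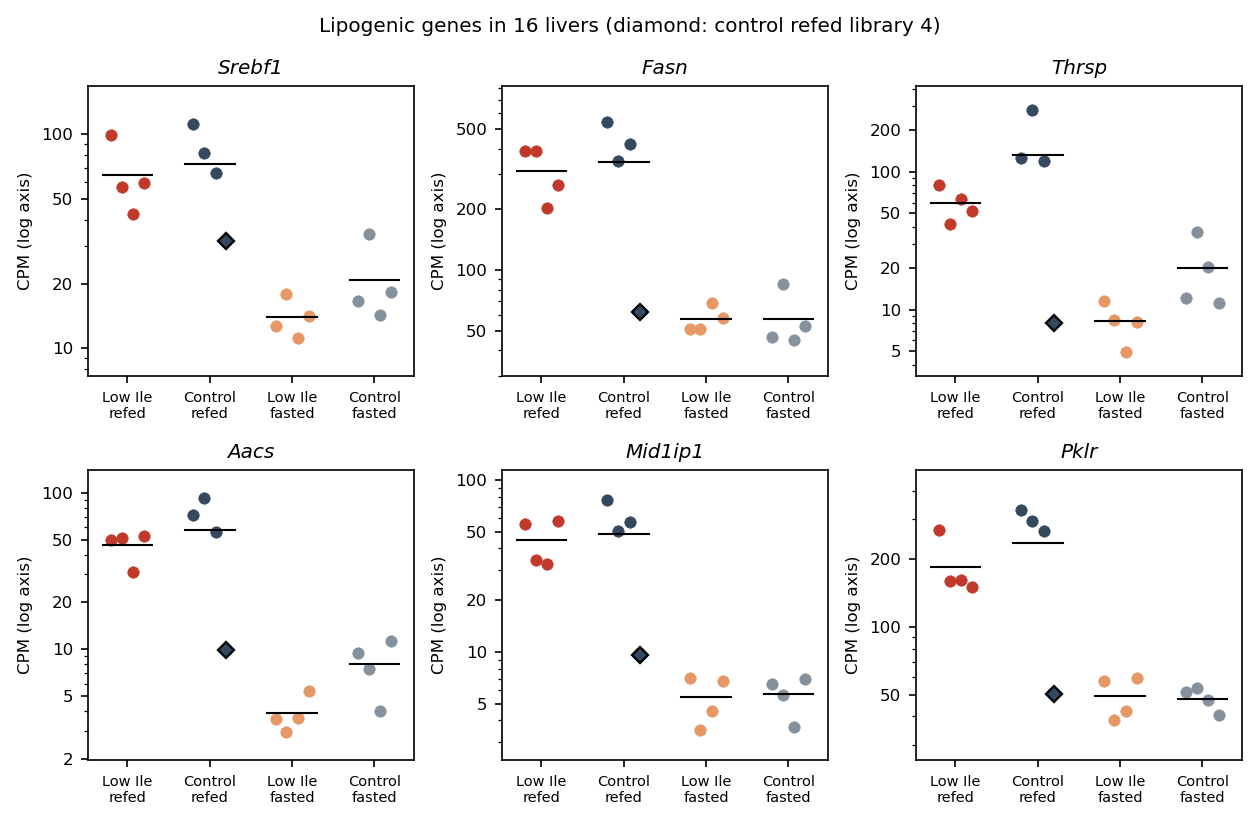
CPM on a log axis of Srebf1, Fasn, Thrsp, Aacs, Mid1ip1 and Pklr in the 16 livers, with a point per library, a line at the group mean and a diamond for control refed library 4. The low isoleucine refed livers lay above the low isoleucine fasted livers for all 6 genes, while the diamond lay inside the control fasted range for Srebf1, Fasn, Aacs and Pklr, above it for Mid1ip1 and below it for Thrsp (8.01 CPM).

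Of the 5 genes of fatty acid synthesis and its modulators, 4 rose and 1 fell on the low isoleucine diet, and 3 rose and 1 fell on the control diet. The acetyl-CoA carboxylases moved in opposite directions on the low isoleucine diet. Fasn lies on chromosome 11, 120805846 to 120824547, minus strand (ENSMUSG00000025153). Fasn was at 390.1, 387, 203 and 265 CPM in low isoleucine refed livers, against 51.0, 51.1, 68.9 and 57.7 CPM in low isoleucine fasted livers. Fasn in control-diet livers was at 545, 348, 419.9 and 62.2 CPM after refeeding, against 46.7, 85.5, 44.8 and 53.1 CPM after fasting. All 4 low isoleucine refed libraries were at 203 CPM or more, and 3 of the 4 control refed libraries at 348 CPM or more. The log2 fold change was 2.44, SE 0.467, adjusted p = 0.00193 on the low isoleucine diet and 2.58, SE 0.470, adjusted p = 0.00185 on the control diet, and 2.92 on the control diet without library 4. Thrsp lies on chromosome 7, 97412938 to 97417730, minus strand (ENSMUSG00000035686). Thrsp, also called Spot 14, a thyroid hormone and carbohydrate responsive protein of lipogenic tissues, was at 80.3, 41.6, 63.3 and 52.4 CPM in low isoleucine refed livers, against 11.6, 8.46, 4.97 and 8.10 CPM in low isoleucine fasted livers. Refed control livers held 127, 279.9, 120.4 and 8.01 CPM of Thrsp, against 12.1, 36.6, 20.3 and 11.3 CPM in fasted control livers. Control refed library 4 was below all 4 control fasted libraries for this gene, and the other 3 were above all of them. Thrsp rose by 2.85, SE 0.723, adjusted p = 0.0121 on the low isoleucine diet and by 2.73, SE 0.710, adjusted p = 0.0171 on the control diet, where it did not pass without control fasted library 1, control fasted library 4 or control refed library 2 (adjusted p up to 0.0553).

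Mid1ip1 lies on chromosome X, 10715013 to 10719690, plus strand (ENSMUSG00000008035). Mid1ip1, the Thrsp paralog whose protein helps acetyl-CoA carboxylase form filaments, was at 55.6, 34.5, 32.7 and 57.5 CPM in low isoleucine refed livers, against 7.09, 3.52, 4.52 and 6.81 CPM in low isoleucine fasted livers. Control-diet livers had 76.3, 50.7, 56.7 and 9.65 CPM of Mid1ip1 after refeeding, against 6.50, 5.60, 3.66 and 6.93 CPM after fasting. It did not overlap between refed and fasted livers on either diet (log2 fold change 3.04, SE 0.482, adjusted p = 0.000533 on the low isoleucine diet and 3.09, SE 0.483, adjusted p = 0.000628 on the control diet), and 25.5% of its exon bases are shared with the antisense gene Gm14493. Acaca lies on chromosome 11, 84129672 to 84401651, plus strand (ENSMUSG00000020532). Acaca, acetyl-CoA carboxylase of the cytosol, was at 96.8, 73.5, 74.8 and 61.7 CPM in low isoleucine refed livers, against 41.3, 58.0, 45.0 and 41.9 CPM in low isoleucine fasted livers. On the control diet Acaca had 64.1, 78.6, 82.8 and 52.2 CPM in refed livers, against 39.7, 65.6, 45.9 and 34.7 CPM in fasted livers, where the groups overlapped. It rose on the low isoleucine diet (0.72, SE 0.197, adjusted p = 0.0153), though not without low isoleucine refed library 1 (adjusted p = 0.0592), and did not pass on the control diet (0.58, SE 0.197, adjusted p = 0.0536). Acacb, the mitochondrial carboxylase whose malonyl-CoA restrains fatty acid oxidation, was at 23.4 ± 4.87 CPM in low isoleucine refed livers, against 63.3 ± 22.0 CPM in low isoleucine fasted livers (SD, n = 4 each). It averaged 23.6 ± 9.50 CPM in control refed livers, against 48.2 ± 15.1 CPM in control fasted livers (SD, n = 4 each). Acacb fell on the low isoleucine diet (-1.43, adjusted p = 0.00520) and on the control diet (-1.03, adjusted p = 0.0378). The control-diet call was lost without control fasted library 1, 3 or 4 or control refed library 1, 3 or 4, with an adjusted p up to 0.123.

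Of the 5 genes of NADPH supply and the pentose phosphate pathway 1 rose on each diet and the other 4 did not pass. Pgd, 6-phosphogluconate dehydrogenase, which makes NADPH, was at 23.9, 19.7, 18.0 and 20.5 CPM in low isoleucine refed livers, against 14.9, 15.2, 16.0 and 15.9 CPM in low isoleucine fasted livers (0.41, SE 0.139, adjusted p = 0.0462). Control-diet livers had 26.5, 25.7, 20.3 and 16.2 CPM of Pgd after refeeding, against 14.9, 17.1, 13.7 and 15.4 CPM after fasting (0.54, SE 0.139, adjusted p = 0.0135). On the low isoleucine diet the Pgd call stood close to the threshold and passed in 8 of 24 alternatives, 3 of the 16 that leave out a library, with an adjusted p up to 0.149. Me1, cytosolic malic enzyme, another source of NADPH, was at 109 ± 3.97 CPM in low isoleucine refed livers, against 122 ± 7.31 CPM in low isoleucine fasted livers, and at 117 ± 37.4 CPM in control refed livers, against 114 ± 4.75 CPM in control fasted livers (SD, n = 4 each). The entry enzyme G6pdx, glucose-6-phosphate dehydrogenase, stayed between 2.96 and 5.98 CPM in all 16 libraries (82 to 241 counts). Tkt, transketolase, and Taldo1, transaldolase, interconvert sugar phosphates in the same pathway, with log2 fold changes of 0.35 and 0.16 on the low isoleucine diet and 0.31 and 0.03 on the control diet. Tkt averaged 56.9 ± 11.8 CPM in low isoleucine refed, 51.9 ± 21.9 in control refed, 44.5 ± 9.88 in low isoleucine fasted and 41.9 ± 5.12 CPM in control fasted livers (SD, n = 4 each). Taldo1 averaged 41.0 ± 11.1 CPM in low isoleucine refed, 40.1 ± 11.6 in control refed, 36.6 ± 8.96 in low isoleucine fasted and 39.2 ± 4.26 CPM in control fasted livers (SD, n = 4 each). On the low isoleucine diet every refed library lay below every fasted one for Me1 (-0.16, 95% interval -0.53 to 0.21), and the interval for Tkt was -0.19 to 0.90.

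Of the acyl-CoA synthetases, which activate fatty acids, Acsl3 rose on both diets and Acsl5 fell on the low isoleucine diet. Acsl3, an isoform of the endoplasmic reticulum and lipid droplets, was at 28.9, 31.2, 27.4 and 33.0 CPM in low isoleucine refed livers, against 26.6, 16.4, 12.8 and 13.7 CPM in low isoleucine fasted livers (0.80, SE 0.224, adjusted p = 0.0178). It had 30.7, 33.3, 39.3 and 20.99 CPM in control refed livers, against 13.7, 19.5, 19.3 and 13.0 CPM in control fasted livers (0.92, SE 0.224, adjusted p = 0.00978). Refed and fasted livers did not overlap for Acsl3 on either diet, and the low isoleucine call was lost without low isoleucine fasted library 3 or 4 (adjusted p up to 0.0592). Acsl5, a mitochondrial and endoplasmic reticulum isoform, fell on the low isoleucine diet, at 349.6 ± 45.3 CPM in refed livers, against 489 ± 54.4 CPM in fasted livers (-0.48, SE 0.132, adjusted p = 0.0145; SD, n = 4 each), a call lost without low isoleucine fasted library 2 or refed library 4 (adjusted p up to 0.0546). On the control diet Acsl5 was at 363 ± 51.7 CPM in refed livers, against 407 ± 41.6 CPM in fasted livers (-0.16, adjusted p = 0.459; SD, n = 4 each).

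The 9 glycerolipid genes moved mostly down or not at all on refeeding, 4 falling and 1 rising on the low isoleucine diet and 3 falling on the control diet. Lpin2 lies on chromosome 17, 71182560 to 71249817, plus strand (ENSMUSG00000024052). Lpin2, a lipin, which makes diacylglycerol from phosphatidic acid, was at 75.8, 64.0, 70.6 and 108 CPM in low isoleucine refed livers, against 446, 617, 662 and 386 CPM in low isoleucine fasted livers. Refed control livers had 115, 192, 72.8 and 85.5 CPM of Lpin2, against 596, 477, 542 and 666 CPM in fasted control livers. Each refed library was at 192 CPM or less and each fasted library at 386 CPM or more, and the log2 fold change was -2.73, SE 0.279, adjusted p = 6.57e-06 on the low isoleucine diet and -2.30, SE 0.274, adjusted p = 5.39e-05 on the control diet. Lpin1 lies on chromosome 12, 16535669 to 16610966, minus strand (ENSMUSG00000020593). Lpin1, lipin 1, which also acts as a coactivator of fatty acid oxidation genes, was at 27.2, 19.3, 20.7 and 21.6 CPM in low isoleucine refed livers, against 51.1, 117, 66.0 and 83.2 CPM in low isoleucine fasted livers. Control-diet livers had 35.5, 108, 22.4 and 17.3 CPM of Lpin1 after refeeding, against 121, 108, 165 and 288 CPM after fasting. The control-diet groups were set apart by a narrow margin, at 107.8 CPM in refed library 2 and 108.3 CPM in fasted library 2. Lpin1 fell on the low isoleucine diet (-1.84, SE 0.504, adjusted p = 0.0182) and on the control diet (-1.90, SE 0.503, adjusted p = 0.0184). Without low isoleucine fasted library 2 or refed library 2, or on the control diet without fasted library 4, refed library 1 or refed library 3, it did not pass (adjusted p up to 0.0551 on the low isoleucine diet and 0.0626 on the control diet).

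Agpat3, an acyltransferase that makes phosphatidic acid from lysophosphatidic acid, fell on both diets. It was at 205 ± 31.9 CPM in low isoleucine refed livers, against 321 ± 58.9 CPM in low isoleucine fasted livers (-0.65, adjusted p = 0.0103; SD, n = 4 each). Agpat3 averaged 177 ± 36.4 CPM in control refed livers, against 256 ± 27.9 CPM in control fasted livers (-0.53, adjusted p = 0.0353; SD, n = 4 each), and the control-diet call was lost without control fasted library 1, 2 or 4 or control refed library 3 or 4 (adjusted p up to 0.111). Gpam, the mitochondrial acyltransferase that opens glycerolipid synthesis and is counted among SREBP-1c targets, fell on the low isoleucine diet. It was at 75.1, 60.3, 63.8 and 36.5 CPM in low isoleucine refed livers, against 83.9, 142, 122 and 88.8 CPM in low isoleucine fasted livers (-0.89, SE 0.206, adjusted p = 0.00558). The control-diet livers had 62.6, 75.9, 64.1 and 54.3 CPM of Gpam after refeeding, against 105, 112, 77.6 and 93.0 CPM after fasting, without overlap but short of the threshold (-0.59, SE 0.205, adjusted p = 0.0569). On the low isoleucine diet Gpam thus moved opposite to Srebf1 and Fasn in the same livers.

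Dgat2, one of the enzymes of the last step to triglyceride, rose on the low isoleucine diet, at 369, 386, 319 and 452 CPM in refed livers, against 194, 234, 275 and 259.8 CPM in fasted livers (0.66, SE 0.210, adjusted p = 0.0321). This call was lost without low isoleucine fasted library 1, 2 or 4 or low isoleucine refed library 1, 2 or 4, with an adjusted p up to 0.0986. On the control diet Dgat2 was at 311 ± 99.6 CPM in refed livers, against 271 ± 52.8 CPM in fasted livers (0.20, adjusted p = 0.596; SD, n = 4 each). Dgat1, which catalyses the same step, did not pass and ran from 15.05 to 21.02 CPM over the 16 libraries. Agpat2, a paralog of Agpat3, had log2 fold changes of -0.01 on the low isoleucine diet and -0.08 on the control diet, and Gpd1, which makes glycerol 3-phosphate, had -0.19 and -0.25. Gpd1 levels were 497 ± 63.0 CPM in low isoleucine refed, 442 ± 198 in control refed, 566 ± 130.3 in low isoleucine fasted and 524 ± 119 CPM in control fasted livers (SD, n = 4 each). Those of Agpat2 were 134 ± 22.3 CPM in low isoleucine refed, 108 ± 35.5 in control refed, 136 ± 26.3 in low isoleucine fasted and 114 ± 19.8 CPM in control fasted livers (SD, n = 4 each). Mogat1, a monoacylglycerol acyltransferase, was scarce at 0.298 to 2.13 CPM (12 to 55 counts), and its 95% intervals of -0.97 to 0.78 and -0.92 to 0.85 do not exclude changes near 2-fold. None of these 3 passed.

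Of the droplet proteins and lipases, 2 fell on both diets. Cidec lies on chromosome 6, 113424634 to 113435760, minus strand (ENSMUSG00000030278). Cidec, a lipid droplet protein that promotes droplet fusion and is induced by fasting and by PPAR factors in liver, was at 5.11, 8.31, 3.32 and 9.35 CPM in low isoleucine refed livers, against 18.8, 43.6, 53.0 and 39.9 CPM in low isoleucine fasted livers. Refed control livers had 13.6, 9.98, 6.27 and 14.6 CPM of Cidec, against 26.9, 21.4, 28.4 and 28.7 CPM in fasted control livers. Refed and fasted livers did not overlap on either diet, and the log2 fold change was -2.57, SE 0.352, adjusted p = 0.000128 on the low isoleucine diet and -1.24, SE 0.337, adjusted p = 0.0197 on the control diet, where it did not pass without control refed library 3 (adjusted p = 0.0604). Cidec is also an adipocyte gene, and the 6 adipocyte markers summed to 6.08 to 7.83 CPM in low isoleucine refed, 7.24 to 21.3 in control refed, 9.99 to 28.4 in low isoleucine fasted and 6.83 to 14.5 CPM in control fasted livers. The low isoleucine fasted library with the highest adipocyte sum, library 1, had the lowest Cidec level of its group, 18.8 CPM. In both refed groups the library with the highest adipocyte sum also had the highest Cidec level. These were control refed library 4 (21.3 CPM, Cidec 14.6 CPM) and low isoleucine refed library 4 (7.83 CPM, Cidec 9.35 CPM). Low isoleucine refed library 2 had nearly the same sum (7.81 CPM, Cidec 8.31 CPM). The sums were mostly Fabp4, at 19.4 CPM in control refed library 4 and 7.78 CPM in low isoleucine refed library 4. Adipoq was at 0.595 and 0.0287 CPM in these libraries. Control fasted library 3, with the highest sum of its group (14.5 CPM), had 28.4 CPM of Cidec, just below library 4 (28.7 CPM). Of the defining adipocyte markers, Plin1, Lep and Retn were at 0 in every control fasted library and Lep also in every low isoleucine refed library, and their part was not tested. Pnpla2, adipose triglyceride lipase, was at 36.8, 62.7, 32.6 and 52.4 CPM in low isoleucine refed livers, against 51.2, 117, 109 and 114 CPM in low isoleucine fasted livers (-1.08, SE 0.253, adjusted p = 0.00614), where fasted library 1 lay among the refed ones. Control-diet livers had 51.0, 47.1, 32.3 and 36.5 CPM of Pnpla2 after refeeding, against 83.0, 77.3, 82.5 and 111 CPM after fasting (-1.08, SE 0.254, adjusted p = 0.00800), without overlap.

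Pnpla3 lies on chromosome 15, 84167837 to 84187236, plus strand (ENSMUSG00000041653). Pnpla3, a lipase-like protein of lipid droplets and a known SREBP-1c target, was scarce, with 8 to 121 counts per library. Its level was 2.35, 0.651, 0.688 and 0.918 CPM in low isoleucine refed livers, against 0.477, 0.345, 0.452 and 0.519 CPM in low isoleucine fasted livers, without overlap but short of the threshold (1.35, SE 0.556, adjusted p = 0.0955). Control-diet livers had 1.53, 3.86, 4.83 and 0.645 CPM of Pnpla3 after refeeding, against 0.284, 0.307, 0.553 and 0.385 CPM after fasting, and it rose there (2.81, SE 0.565, adjusted p = 0.00293). Cideb, a droplet protein of hepatocytes that aids lipidation of very low density lipoproteins, did not pass on either diet (0.05 on the low isoleucine diet and -0.06 on the control diet). Its levels were 181 ± 28.3 CPM in low isoleucine refed, 172 ± 44.6 in control refed, 175 ± 24.7 in low isoleucine fasted and 179 ± 8.18 CPM in control fasted livers (SD, n = 4 each). A further limit is that 76.3% of its exon bases are shared with Nop9 on the opposite strand and whether strand was used in counting is not stated.

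**Figure D2:**
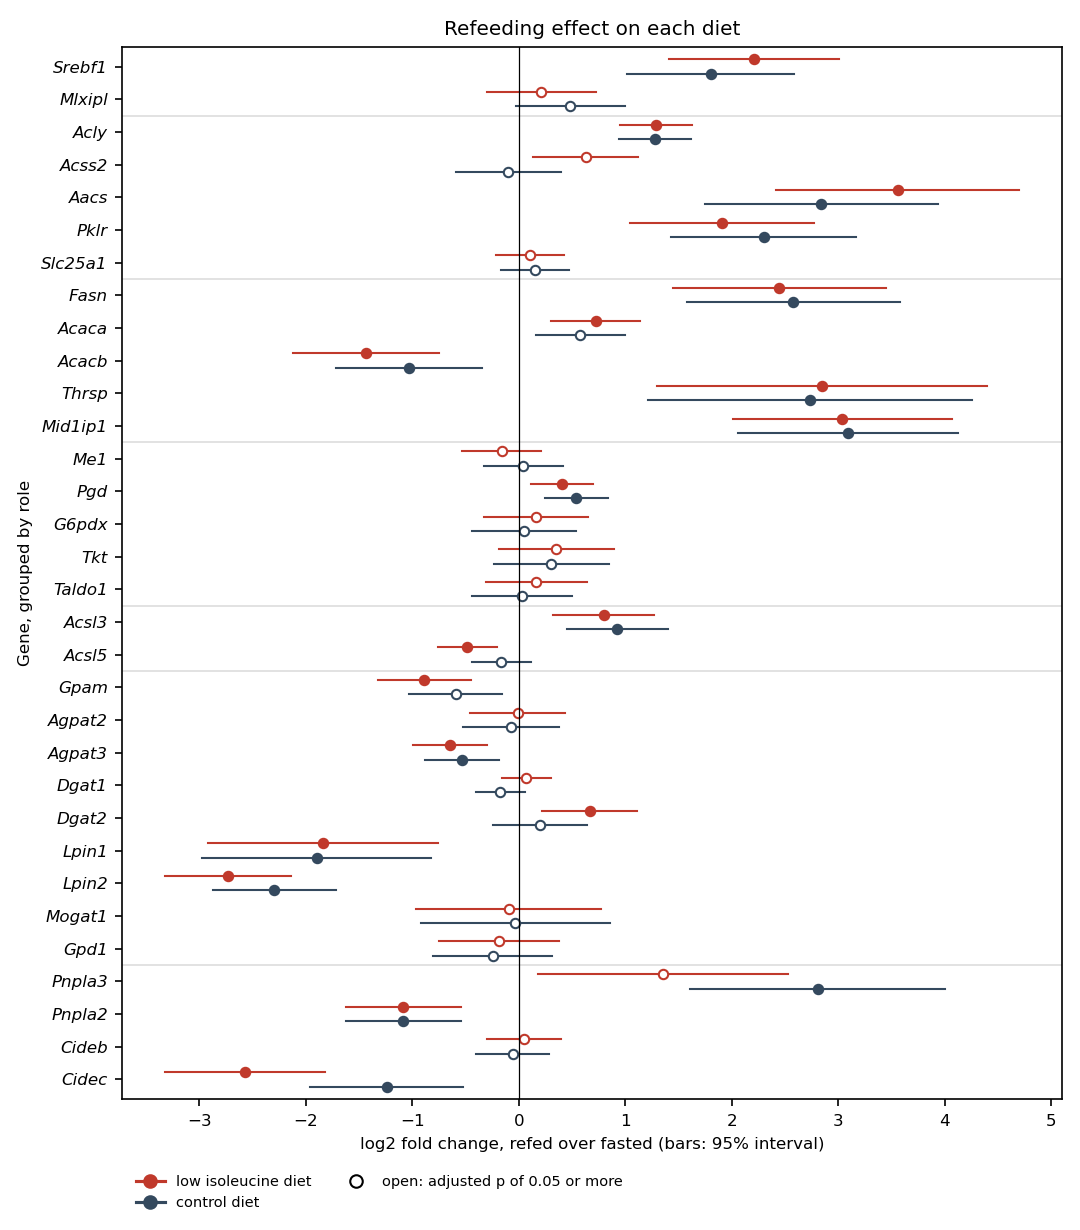
Log2 fold change, refed over fasted, of the 32 genes grouped by role on the low isoleucine diet (red) and the control diet (dark blue), with 95% intervals as bars and open circles where the adjusted p was 0.05 or more. The furthest right are Aacs at 3.56 on the low isoleucine diet and Mid1ip1 at 3.09 on the control diet, and the furthest left is Lpin2 at -2.73 and -2.30.

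**Figure D3:**
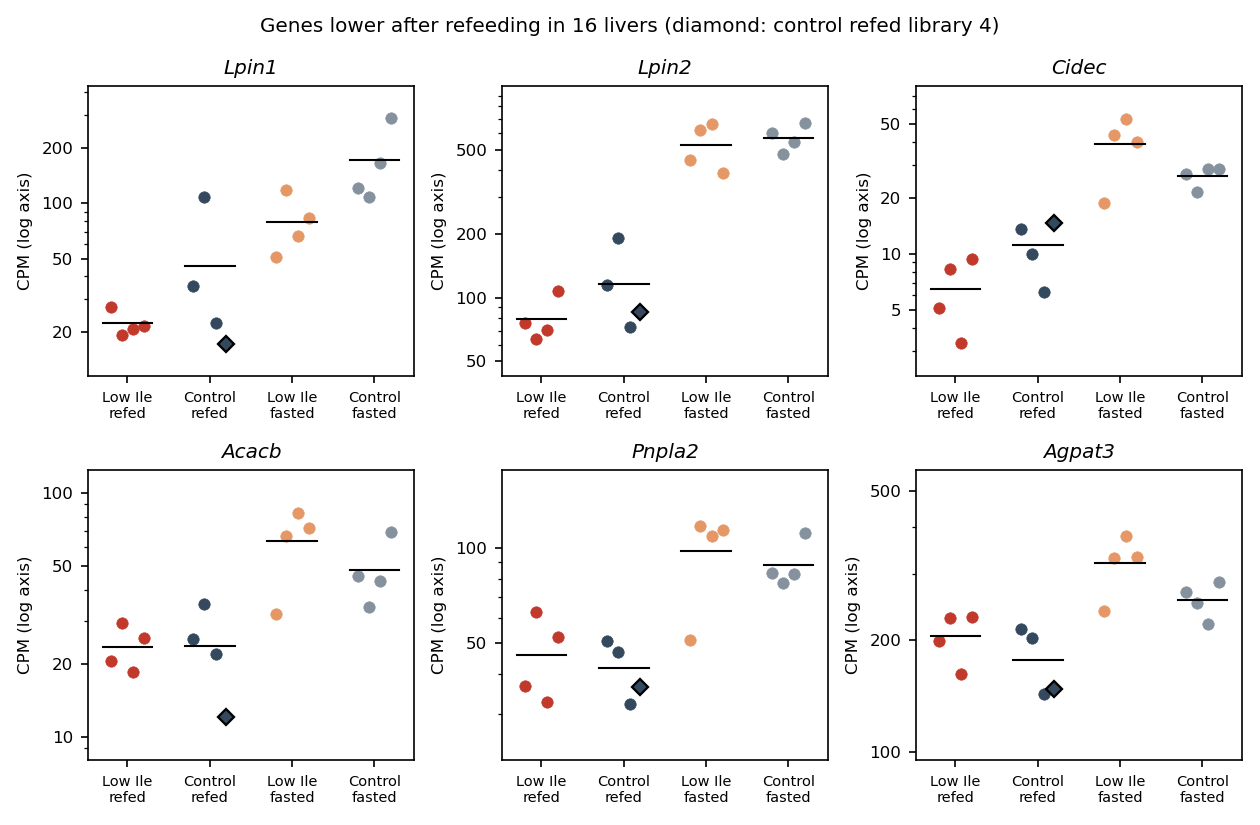
CPM on a log axis of the 6 genes that fell on refeeding on both diets, with a point per library, a line at the group mean and a diamond for control refed library 4. Refed livers of both diets lie below fasted ones for Lpin2 (64.0 to 192 CPM against 386 to 666 CPM), and for Pnpla2 and Acacb low isoleucine fasted library 1 lies lowest of its group.

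The 32 genes differed widely in abundance. Per kilobase of merged exon, the 32 genes ran from 0.744 ± 0.521 CPM per kilobase (Pnpla3) to 168 ± 21.3 (Gpd1) in low isoleucine refed livers (SD, n = 4 each). On that scale Fasn stood at 28.4 ± 8.48, Acly at 28.9 ± 4.05, Mlxipl at 29.7 ± 6.39 and Pklr at 57.2 ± 17.4 CPM per kilobase, and the first 3 did not differ beyond their spread. Acaca, which feeds Fasn, stood at 4.49 ± 0.857 and Srebf1 at 11.5 ± 4.35. Dgat2, at 124 ± 17.9 CPM per kilobase, lay above Dgat1, at 6.43 ± 0.469.

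Between diets 0 of the 32 genes passed in refed mice, where 0.174% of all genes did (0.0603% higher and 0.114% lower), and 0 passed in fasted mice, where 0.771% did (0.328% higher and 0.442% lower). At such shares a list of 32 genes holds few or no calls at the background rate. By edgeR 3 of the 32 had an unadjusted p under 0.05 in each feeding state, and the DESeq2 and limma-voom tests also called 0. The median log2 fold change, low isoleucine over control, was -0.05 in refed and 0.01 in fasted mice, beside -0.01 and 0.01 over all genes. The authors' deposited table for refed mice lists all 32 genes with 0 past an adjusted p of 0.05 (lowest 0.444), and the authors' deposited table for fasted mice likewise (lowest 0.361).

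After refeeding the 6 largest differences were all negative, in Pnpla3, Thrsp, Lpin1, Cidec, Lpin2 and Pklr. Pnpla3 averaged 1.15 ± 0.807 CPM in low isoleucine refed livers and 2.72 ± 1.96 CPM in control refed livers (SD, n = 4 each; -1.22, SE 0.506, adjusted p = 0.445). Thrsp averaged 59.4 ± 16.5 CPM in low isoleucine refed livers and 134 ± 112 CPM in control refed livers (SD, n = 4 each; -1.17, SE 0.671, adjusted p = 0.603). Its 4 low isoleucine values, 41.6 to 80.3 CPM, lay below those of control refed libraries 1 to 3 and above that of library 4. Lpin1 differed by -1.04 (adjusted p = 0.524), Cidec by -0.77 (adjusted p = 0.475), Lpin2 by -0.55 (adjusted p = 0.524) and Pklr by -0.35 (adjusted p = 0.822). In refed livers the groups overlapped for all 32 genes, while over all genes 2.2% lay without overlap above the control livers and 2.24% below them. Fasn was at 311 ± 92.8 CPM in low isoleucine refed and 344 ± 204 CPM in control refed livers (SD, n = 4 each; -0.14, 95% interval -1.09 to 0.80). Control refed library 4 stood at 62.2 CPM of Fasn, beside 348 to 545 CPM in the other 3. Srebf1 (-0.17), Acaca (0.14) and Mlxipl (0.01) had adjusted p values of 0.915, 0.860 and 0.999.

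In fasted livers the 6 largest differences were in Thrsp, Lpin1, Aacs, Srebf1, Cidec and Acss2. From the library values given above, Thrsp averaged 8.27 ± 2.70 CPM in low isoleucine fasted livers and 20.1 ± 11.7 CPM in control fasted livers (SD, n = 4 each; -1.28, SE 0.697, adjusted p = 0.557). Lpin1 averaged 79.4 ± 28.4 CPM in low isoleucine fasted livers and 171 ± 82.0 CPM in control fasted livers (SD, n = 4 each; -1.10, SE 0.491, adjusted p = 0.430), and Aacs 3.90 ± 1.07 and 8.04 ± 3.08 CPM (-1.04, SE 0.513, adjusted p = 0.495). All 3 had overlapping groups: Thrsp low isoleucine library 1 lay above control library 4, and Lpin1 low isoleucine library 2 above control library 2. Srebf1 differed by -0.58 (adjusted p = 0.629), Acss2 by -0.53 (adjusted p = 0.421) and Cidec by 0.56 (adjusted p = 0.596). For Acly every low isoleucine fasted library (57.6 to 66.6 CPM) lay below every control fasted library (73.7 to 97.7 CPM), 1 of the 32 genes to do so, where 4.4% of all genes lay below without overlap and 3.67% above (-0.36, SE 0.157, adjusted p = 0.413). Fasn, in contrast, was at 57.2 ± 8.42 CPM in low isoleucine fasted and 57.5 ± 19.0 CPM in control fasted livers (SD, n = 4 each; -0.01, 95% interval -0.96 to 0.94), and Acaca at 46.6 ± 7.79 and 46.5 ± 13.5 CPM (0.00, 95% interval -0.41 to 0.42). Mlxipl differed by 0.28 (adjusted p = 0.773). In the same livers the 8 Kupffer cell and macrophage markers summed to 161 to 224 CPM on the low isoleucine diet and 261 to 340 CPM on the control diet, without overlap, with 0 of the 8 at 0, and their part in these differences was not tested.

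Averaged over both feeding states, again 0 of the 32 genes passed, where 1.51% of all genes did (0.576% higher and 0.938% lower), and 4 had an unadjusted p under 0.05. Thrsp had -1.23, SE 0.484, adjusted p = 0.251, Lpin1 -1.07, SE 0.349, adjusted p = 0.155, Aacs -0.68, SE 0.347, adjusted p = 0.399 and Acly -0.35, SE 0.111, adjusted p = 0.126. Pnpla3 (-0.50) and Srebf1 (-0.38) had adjusted p values of 0.635 and 0.555. This was the diet comparison whose calls among the 32 genes changed without control refed library 4. Then Thrsp (-1.44, SE 0.295, adjusted p = 0.0180), Aacs (-0.87, SE 0.200, adjusted p = 0.0290) and Acly (-0.42, SE 0.104, adjusted p = 0.0383) fell, where 3.14% of all genes passed, and Lpin1 stood at -1.22, SE 0.325, adjusted p = 0.0648. Leaving out a library that is low in these genes raises the control refed mean of most of them by construction. In refed mice alone 0 of the 32 still passed without it, 9 had an unadjusted p under 0.05, and the median was -0.24, beside -0.01 over all 15043 genes then tested. There Thrsp stood at -1.58 (adjusted p = 0.124), Pnpla3 at -1.58 (adjusted p = 0.106), Aacs at -0.69 (adjusted p = 0.343), Fasn at -0.51 (adjusted p = 0.490) and Srebf1 at -0.44 (adjusted p = 0.698). Of the other genes named for refed mice, Lpin1 at -1.33 (adjusted p = 0.275), Pklr at -0.70 (adjusted p = 0.127), Lpin2 at -0.68 (adjusted p = 0.336) and Cidec at -0.62 (adjusted p = 0.591) did not pass without it either, with Pklr further from 0 and Cidec nearer to 0 than with it.

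**Figure D4:**
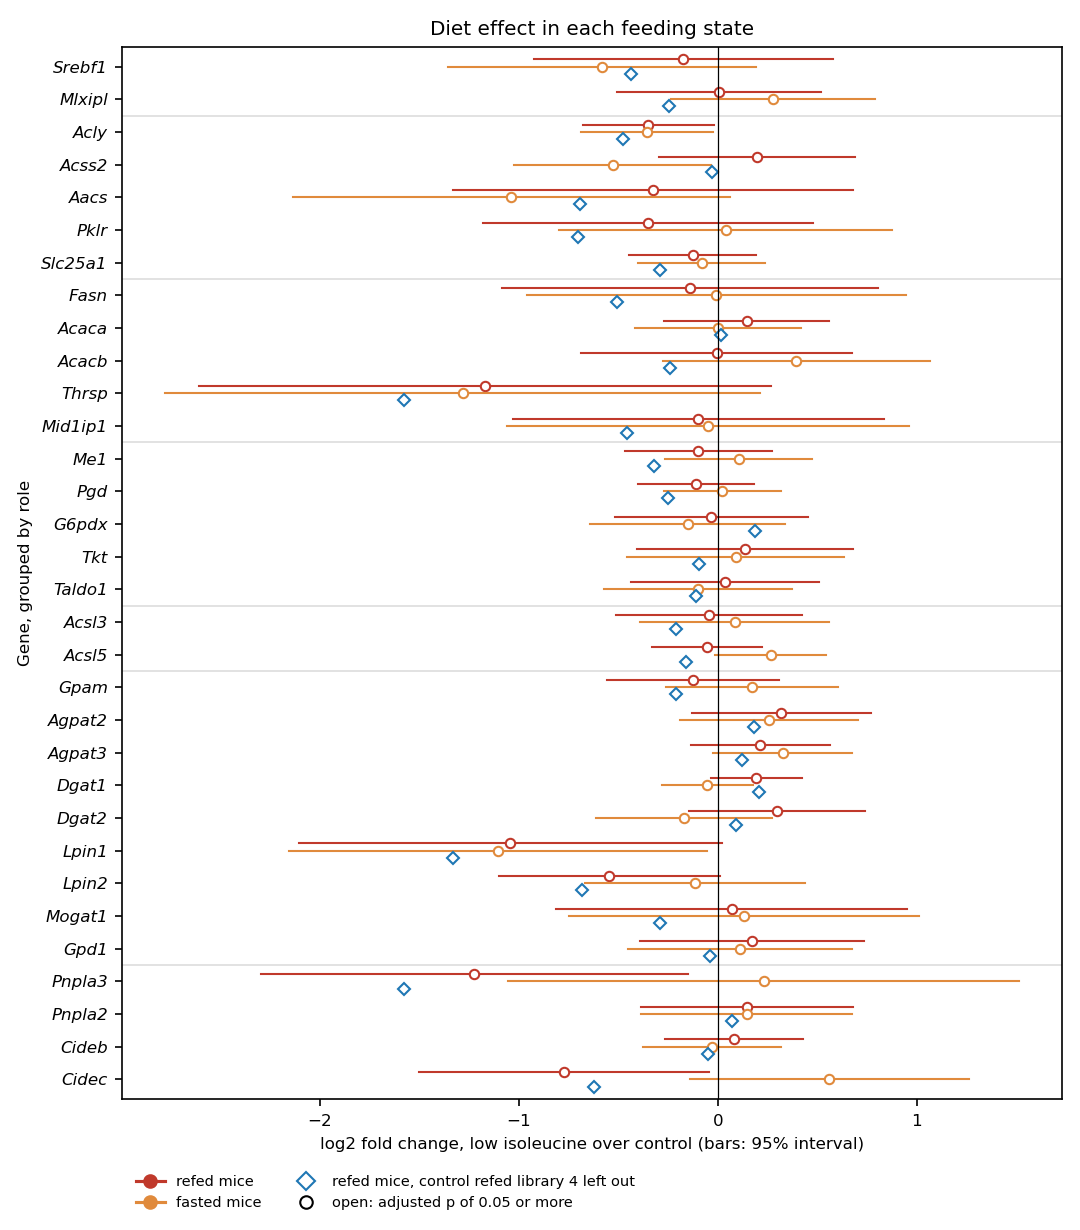
Log2 fold change, low isoleucine over control, of the 32 genes in refed mice (red) and fasted mice (orange), with 95% intervals as bars, open circles because 0 genes passed, and blue diamonds for refed mice without control refed library 4. Thrsp and Lpin1 lie below -1 in both feeding states, and the diamonds lie left of the refed circles for most genes, as for Fasn (-0.51 beside -0.14).

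Whether the refeeding response itself differed between diets was tested by the interaction, the diet difference in refed minus that in fasted mice. By edgeR 0 of the 32 genes and 0 of all genes (0%) passed, with 2 of the 32 and 928 of all genes at an unadjusted p under 0.05. DESeq2 called 36 genes, 0 of them among the 32, and limma-voom called 0. Cidec had -1.33, SE 0.475, adjusted p = 0.675, with 6.52 ± 2.80 CPM in low isoleucine refed and 11.1 ± 3.80 CPM in control refed livers, and 38.8 ± 14.4 CPM in low isoleucine fasted and 26.3 ± 3.41 CPM in control fasted livers (SD, n = 4 each). Acss2 had 0.73, SE 0.331, adjusted p = 0.796 and Pnpla3 -1.45, SE 0.791, adjusted p = 0.862. The calls made on one diet and not on the other (Acaca, Dgat2, Gpam and Acsl5 on the low isoleucine diet, Pnpla3 on the control diet) are not shown to differ between diets. For the 4 core genes the interval of the difference was -0.67 to 1.49 for Srebf1, -0.99 to 0.45 for Mlxipl, -1.47 to 1.21 for Fasn and -0.45 to 0.73 for Acaca, so differences of 2-fold are not excluded for Srebf1 and Fasn.

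Other genes of these pathways were counted from lists. Of 19 regulators of lipogenesis, 4 rose and 3 fell on refeeding on the low isoleucine diet and 1 rose and 3 fell on the control diet. The largest were Insig2, an SREBP-retaining protein (-1.81 on the low isoleucine diet, -1.68 on the control diet), Ppargc1b, a coactivator (-1.70 and -1.85), and Irs2, an insulin receptor substrate (-1.36 and -2.04), which all fell on both. Of 22 tested genes among 25 of triglyceride synthesis, droplets and lipolysis, 0 rose and 8 fell on the low isoleucine diet, and 1 rose and 5 fell on the control diet. Plin2, a droplet coat protein, was at 294 ± 71.7 CPM in low isoleucine refed livers, against 1068 ± 178 CPM in low isoleucine fasted livers (SD, n = 4 each; -1.86), and Gpat4, a second glycerol 3-phosphate acyltransferase, fell like Gpam (-1.21 on the low isoleucine diet and -1.10 on the control diet). Plin2 was at 265 to 408 CPM in control refed livers, against 583 to 785 CPM in control fasted livers, without overlap. Acsl1, the main hepatic acyl-CoA synthetase, fell on both diets (-1.35 and -1.07), and Plin5, another coat protein, on the low isoleucine diet (-1.26). Plin5 levels overlapped on the control diet, at 20.8 to 33.1 CPM after refeeding and 32.3 to 54.6 CPM after fasting. Of 13 desaturases and elongases, 2 rose and 6 fell on the low isoleucine diet and 2 rose and 3 fell on the control diet. Elovl6, which extends palmitate to stearate, rose (1.12 and 1.00) with Fasn, whereas Elovl5, an elongase of polyunsaturated fatty acids, fell (-1.34 and -0.84), and Elovl3 (-2.07) and Scd1 (-1.74) fell on the low isoleucine diet. Control-diet levels of Elovl3 were 4.56 to 64.8 CPM after refeeding, against 107 to 150 CPM after fasting, without overlap. Those of Scd1 overlapped, at 573 to 5272 CPM after refeeding and 1493 to 5935 CPM after fasting.

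Of 17 tested genes among 20 of other NADPH, pentose phosphate and citrate or pyruvate steps, 0 rose and 2 fell on refeeding on the low isoleucine diet and 2 rose and 1 fell on the control diet. H6pd, the endoplasmic reticulum counterpart of G6pdx, fell on both diets (-1.21 and -0.73), and Rpia, ribose-5-phosphate isomerase, rose on the control diet (1.07). This list also held the pathway genes that passed between diets. Mpc2, a subunit of the mitochondrial pyruvate carrier, was at 171, 171, 150.2 and 171 CPM in low isoleucine fasted livers, against 120.1, 115, 127 and 108 CPM in control fasted livers, without overlap, and rose (0.50, SE 0.0918, adjusted p = 0.0224). Averaged over feeding states Mpc2 (0.34, SE 0.0648, adjusted p = 0.0134), its partner Mpc1 (0.29, SE 0.0678, adjusted p = 0.0422) and citrate synthase, Cs (0.32, SE 0.0731, adjusted p = 0.0352), rose. Slc25a1 and Acly, which act next on citrate, had averaged differences of -0.10 and -0.35 and did not pass. For genes outside the 32, single-gene values under the alternatives were not examined. How far the Mpc2, Mpc1 and Cs calls depend on the processing or on single libraries is therefore not known. Angptl4, an inhibitor of lipoprotein lipase, fell on refeeding on both diets (-3.62 on the low isoleucine diet and -3.00 on the control diet).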

How the data were processed

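Stranded poly-A libraries of 16 livers were sequenced over several lanes that were merged per sample, per the labels' protocols. The authors deposited a gene table of RSEM expected counts (the tool is in the table's name), and 10.2% of these values were fractional. The aligner, build and annotation that they rest on were not given in the sources used here. R 3.5.3, limma and edgeR stand in the submitters' processing notes. Their deposited diet comparisons, per the file headers, give p-values, an F score, log2 fold changes and mean log2 CPM, and for the 32 genes these fold changes differed from those given here by at most 0.0115.

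Rounded expected counts were tested with edgeR 4.0.16, with DESeq2 1.42.0 and limma 3.58.1 as alternatives (R 4.3.3). Genes passing filterByExpr (minimum count 10, minimum total 15) were scaled by TMM and fitted with 1 mean per group over 16 libraries by a robust quasi-likelihood model. A log2 fold change divided by the root of F gave the SE, with an adjusted p of 0.05 as the threshold. Of 51912 identifiers 51633 had a symbol. Positions and merged exon lengths come from GENCODE M21 (GRCm38), and the build behind the counts may differ. Members, gene lists and the naming rule were chosen with earlier results of these data known. The rule gives values per library for Srebf1, Mlxipl, Fasn and Acaca, for the 6 largest differences in each diet comparison at a mean of at least 1 CPM, and for the 6 largest refeeding changes that passed on both diets. Other genes were named from the lists if they passed between diets or were among the 3 largest per list on refeeding. Alternatives were DESeq2 size factors or upper-quartile scaling, other filters (none, or 1 CPM in 4 libraries), DESeq2, limma-voom, only the compared groups, a block by mark, and leaving out each library.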

Additional observations from a re-analysis of the deposited data

Results flagged for a closer look

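Over 128 sets of 4 libraries (32 genes in 4 groups) the highest or lowest library stood far from the other 3 in 5 cases, and chance alone gives about 1 in 20 sets. Acly was at 97.7 CPM in control fasted library 2 and at 73.7 to 75.4 CPM in the other 3. Aacs was at 30.9 CPM in low isoleucine refed library 3, beside 49.5 to 52.6 CPM. Pnpla3 was at 2.35 CPM in low isoleucine refed library 1, beside 0.651 to 0.918 CPM, so that library carried much of the group mean of 1.15 ± 0.807 CPM (SD, n = 4). Pklr was at 269 CPM in the same library, beside 150.2 to 161 CPM. Pnpla2 was at 51.2 CPM in low isoleucine fasted library 1, beside 109 to 117 CPM, and that library was also the lowest of its group for 19 of the 32 genes (59.4%, against 30.9% of all genes). Low isoleucine refed library 3 was likewise the lowest of its group for 19 of the 32 (59.4%, against 31.6% of all genes), and control fasted library 3 for 15 (46.9%, against 28.1% of all genes).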

How the results depend on the processing

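The count of the 32 genes called was 0 for the diet in refed mice, the diet in fasted mice and the interaction under every alternative. Averaged over feeding states it was 0, except 3 without control refed library 4. For refeeding it ran from 17 to 21 on the low isoleucine diet (19 as reported) and from 12 to 18 on the control diet (16 as reported), and leaving out libraries gave 0 to 3 for the averaged diet difference, 15 to 21 for refeeding on the low isoleucine diet and 12 to 17 on the control diet. The marks RL, R, L and N are shared by the groups, and the labels do not say whether they pair samples. Deviations from the group means were correlated between libraries of different groups. The correlation ran from -0.325 to 0.323 in 24 same-mark pairs (median 0.0312) and from -0.425 to 0.387 in 72 different-mark pairs (median -0.0243). These values cannot decide whether samples of a mark share a cage, litter or batch. With a replicate block by mark the refeeding counts were 17 on the low isoleucine diet and 17 on the control diet and the diet counts 0. The block lost Dgat2 and Pgd on the low isoleucine diet and Acacb on the control diet, gained Acaca and Gpam on the control diet, and changed no other call among the 32 genes. Counts over all genes depended more on the method: between diets DESeq2 called 172 in refed mice, 365 in fasted mice, 607 averaged and 36 for the interaction, against 26, 115, 226 and 0 by edgeR, and a fit of only the compared groups called 3 in refed and 193 in fasted mice. Leaving out 1 library moved these counts over all genes from 3 (low isoleucine refed library 1) to 89 (control refed library 4) in refed mice, 6 (control fasted library 4) to 222 (control refed library 4) in fasted mice, and 115 (low isoleucine fasted library 2) to 473 (control refed library 4) averaged, and low isoleucine fasted library 1, left out, gave 203 in fasted mice and 410.0 averaged. With upper-quartile scaling refeeding on the low isoleucine diet gave 1695 higher and 1547 lower calls, against 1433 and 1761.

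Values near 0 changed sign with the method. Acaca in fasted mice (reported 0.0026) was -0.0225 with upper-quartile scaling, -0.00455 with the filter of 1 CPM in 4 libraries and -0.00495 with only the compared groups, and leaving out libraries gave -0.12 to 0.21. Fasn in fasted mice (reported -0.0083) was 0.032 with limma-voom, 0.032 with the replicate block and -0.11 to 0.25 with libraries left out. Limma-voom gave Fasn 0.16 in refed mice (reported -0.14, -0.51 to 0.17 with libraries left out), 0.096 averaged (reported -0.07, -0.26 to 0.0816) and 0.13 in the interaction (reported -0.13, -0.49 to 0.18). With libraries left out, refed differences ran from -0.46 to 0.11 for Srebf1 and -0.25 to 0.15 for Mlxipl, and the Acaca interaction from -0.0702 to 0.265. The cause was not tested. Depth limits Pnpla3 and Mogat1, at 8 to 121 and 12 to 55 counts per library.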
